A study of Mus musculus with 18 samples.

Results

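Interferon response genes were followed through the estradiol-induced maturation of a mouse erythroid cell line. The set comprised 8 genes: the transcription factors Irf1, Irf7 and Irf9, the signal transducer Stat2, the RNA sensor Ifih1, and Isg15, Ube2l6 and Usp18 of the ISG15 protein-tagging system. Each was taken by its symbol in the annotation of the array platform and read from a probe set listed for that gene alone, the one with the highest mean over all arrays where there were several. By this rule 7 of the 8 genes were found among 18193 genes with such a probe set, and the 7 also lay among the 12719 genes that passed the filter on low values and were tested. Isg15 is listed only on a probe set shared with Gm9706, so no level is assigned to it here.

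The line, G1E-ER4, resembles mouse erythroid progenitors, lacks a working Gata1 gene and carries GATA1 joined to the hormone-binding part of the estrogen receptor. Estradiol activates the joined protein, and the cells then mature toward red cells. The groups were cells before estradiol (0 h) and cells after 3, 7, 14, 21 and 30 h in 20 nM estradiol, with 3 arrays each and 18 in all, every group being of this single line with the same Gata1 disruption and the same GATA1 fusion. Cells kept without estradiol for matching hours were not analysed here, so estradiol, GATA1 activity and hours in culture changed together. Arrays of 1 time are labelled biological replicates, with no mention of separate cultures. The p-values therefore cover only the spread between these samples, which may be technical.

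Interferons are secreted alarm signals against viruses. Type I interferon binds a receptor whose signal reaches the factor ISGF3, of which STAT2 and IRF9 are subunits, and ISGF3 binds interferon-stimulated response elements in the promoters of target genes. Type II interferon acts at gamma-activated sites, and IRF1 is a well-known target of that arm. ISG15 is a ubiquitin-like protein that is activated by UBA7, carried by UBE2L6, attached to other proteins by ligases and removed by USP18, which also binds the type I receptor and damps its signalling.

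Promoter sequences from RefSeq (build GRCm38.p6, 250 bases before to 50 after each gene's start) were listed for 7 of the 8 genes, with none listed for Usp18. Both strands were searched for the response element core (GAAA, any 2 bases, GAAA), the gamma-activated site TTCNNNGAA and the GATA site GATAA, which is a short motif that GATA factors bind. The stretches below are shown because they hold the matches, in capitals. The search covered only these windows and exact letters, so a gene without a match here may carry such a site elsewhere.
Isg15 promoter, chr4:156200856-156200915, minus strand: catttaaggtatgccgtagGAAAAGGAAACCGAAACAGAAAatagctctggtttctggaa
Ifih1 promoter, chr2:62646206-62646235, minus strand: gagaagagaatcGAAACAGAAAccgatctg
Stat2 promoter, chr10:128270251-128270310, plus strand: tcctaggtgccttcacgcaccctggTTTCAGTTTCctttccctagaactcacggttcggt
Irf1 promoter, chr11:53769899-53769958, plus strand: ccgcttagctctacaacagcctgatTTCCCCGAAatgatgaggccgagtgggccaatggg
Irf7 promoter, chr7:141266404-141266433, minus strand: ccttttcactgaGATAAaacccgtcccggc
Irf9 promoter, chr14:55603952-55604011, plus strand: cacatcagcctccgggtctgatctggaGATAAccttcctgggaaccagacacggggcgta

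The response element core occurred in 3 of the 7 genes with a promoter, against 3.99% of 27025 RefSeq genes, counted over 32851 promoters of the same length. Isg15 held 3 overlapping copies, the outermost beginning 78 bases before the start. In Stat2 the single copy began 222 bases before the start and was read on the opposite strand, and in Ifih1 it began 32 bases after the start. Irf1 held a gamma-activated site 90 bases before one of its starts, a motif found in 9.55% of genes. GATAA lay 3 bases after the Irf7 start and 6 bases before one of the Irf9 starts, and 28.4% of all genes hold it in a promoter. The Ube2l6 promoter window held none of these letters. A match describes the sequence and does not show that a factor bound there.

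Arrays of the same time correlated at r = 0.995 to 0.998, and array medians lay between 4.04 and 4.09 on the log2 scale. The Gata1 probe set read between 9.67 and 11.10 on the 18 arrays, and its place relative to the disruption and to the joined GATA1 is unknown here, so it checks no label. All 8 erythroid progenitor markers measured (Kit, Tal1, Epor, Klf1 and others) lay above their array's 40th percentile on all 18 arrays. They were not steady, with 4 called higher and 3 lower at 30 h. Their summed linear signal went from between 21190 and 21920 at 0 h to between 16340 and 17130 at 30 h. Log2 means of Kit (10.05 to 5.28), Gata2 (12.29 to 8.19) and Myb (12.43 to 7.81) fell, while Klf1 (11.31 to 12.11) and Zfpm1 (9.93 to 11.74) rose. Of 10 macrophage and granulocyte markers 4 were tested, and Adgre1, Itgam, Mpo, Elane and S100a8 lay below that percentile on every array. Another 2 lay above it on all 18. At 30 h 2 of the 4 were called higher and 1 lower, against 36.6% and 33% of all tested genes. The summed linear signal of all 10 was 95.4 to 128 at 0 h and 99.4 to 111 at 30 h. Of 7 lymphoid markers 5 were tested, with a sum of 75.1 to 82.1 at 0 h and 80.9 to 92.2 at 30 h, and Cd3e and Nkg7 lay below the percentile throughout. Of the 5 tested, 2 were called higher and 0 lower at 30 h. The sum of the 8 maturing red cell markers went from between 4013 and 4255 at 0 h to between 21360 and 21690 at 30 h. Sums also moved for 7 mast cell and basophil markers, from 418 to 519 at 0 h down to 77.6 to 87.1 at 30 h. Of the 6 tested, 1 was called higher and 4 lower at 30 h. For 4 plasmacytoid dendritic cell markers the sum went from 1153 to 1204 down to 621 to 738, nearly all of it Tcf4, a gene also used by other cells (log2 mean 10.10 at 0 h, 9.18 at 30 h). Siglech had means of 3.91 and 4.19, Ccr9 3.57 and 3.78, and Bst2 5.58 and 5.58, and 1 of the 4 was called higher and 1 lower at 30 h. For 7 megakaryocyte markers the sum went from 471 to 510 up to 1951 to 1989, mostly through Tubb1 (2.43 to 10.62), while Pf4 and Gp5 fell (6.93 to 4.59 and 7.62 to 3.63), with 3 of the 7 called higher and 2 lower. The difference between 3′ and 5′ control probe sets, a reading of RNA integrity and labelling, went from 1.89 at 0 h to 2.20 at 30 h for Actb, from 1.13 to 1.52 for Gapdh and from 1.79 to 2.41 for Tfrc. The part of these movements in the results below was not tested.

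Interferon response genes did not move in a single direction. Ube2l6, Irf9 and Irf7 ended higher at 30 h than at 0 h. Usp18 jumped within 3 h and then came part of the way down, and Irf1 and Ifih1 fell. Stat2 ended slightly higher, after a dip at 3 h that was called on its main probe set only. In these bulk samples a change in RNA per cell cannot be told apart from a change in the share of cells that make it.

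**Figure D1:**
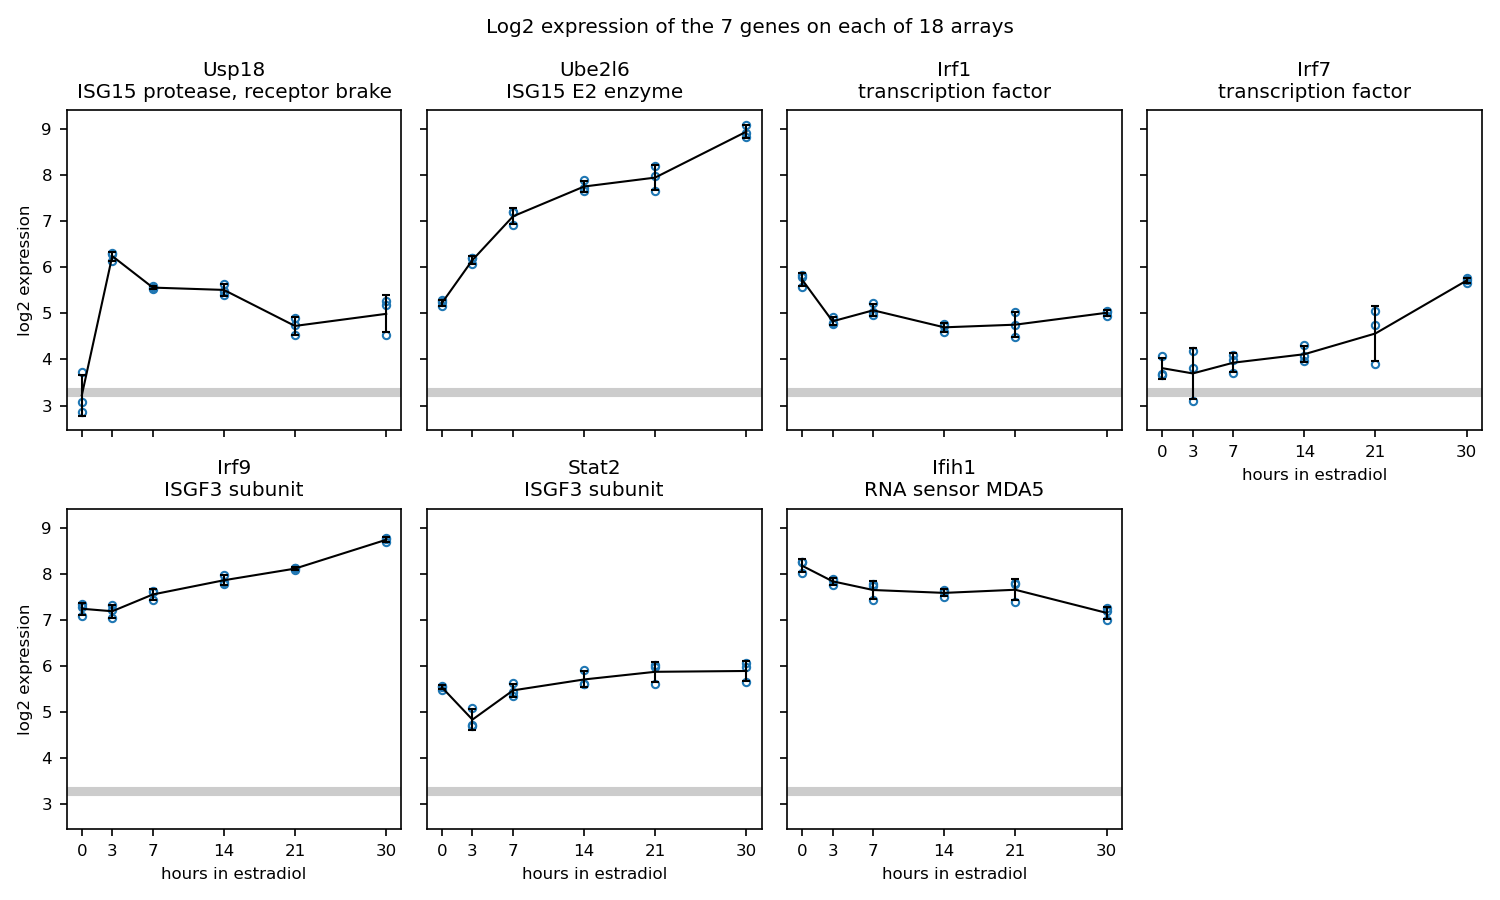
Log2 expression (vertical axis) against hours in estradiol (horizontal axis) for the 7 measured genes, with open circles for single arrays, a line through the mean of 3 arrays per time, bars of 1 SD, and a grey band over the 40th percentiles of the 18 arrays (3.20 to 3.35). Usp18 starts in the band and peaks at 3 h at a mean of 6.24, Ube2l6 climbs from 5.23 to 8.94, Irf7 leaves its starting range late, and Ifih1 and Irf1 are highest at 0 h.

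Usp18, the protease that strips ISG15 from proteins and restrains the type I interferon receptor, had the largest change of the 7 genes at 3 h. At 0 h its log2 values were 3.73, 3.09 and 2.86 on the 3 arrays, and at 3 h they were 6.30, 6.30 and 6.13. At 7 h they were 5.60, 5.54 and 5.54, and at 14 h they were 5.40, 5.48 and 5.65. The arrays read 4.91, 4.53 and 4.74 at 21 h and 5.26, 4.53 and 5.19 at 30 h. Every array after 0 h was above every array at 0 h, and the 3 h arrays were above all others. The rise at 3 h was 3.02 on the log2 scale, or 8.10-fold (SE 0.20, limma adjusted p = 3.11e-08, n = 3 per time), and only 1 of the 12719 tested genes rose more. Because Usp18 lay in or near the lowest 40% of probe sets before estradiol, where the values say little about the true level, the size of this fold is uncertain.

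Usp18 did not stay at its peak. Its mean was 0.68 lower at 7 h than at 3 h (SE 0.20, limma adjusted p = 0.0285), although leaving out any single 3 h or 7 h array ended this call (adjusted p = 0.0533 to 0.0869). From 7 h to 14 h the ranges overlapped (difference -0.05, 95% interval -0.47 to 0.37). Between 14 h and 21 h Usp18 fell by 0.78 (limma adjusted p = 0.00629), and at 30 h it overlapped the 21 h values. That last step of 0.26 (adjusted p = 0.323) was called without replicate 2 of 30 h (0.50, adjusted p = 0.0469). At 30 h Usp18 was still 1.77 above 0 h, or 3.40-fold (limma adjusted p = 7.09e-07). By then 396 genes had risen more.

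Ube2l6, the enzyme that carries activated ISG15 to its ligases, had the largest change of the 7 genes at 30 h. Its log2 values were 5.16, 5.25 and 5.28 at 0 h, 6.07, 6.21 and 6.20 at 3 h, and 7.21, 6.91 and 7.20 at 7 h. They went on to 7.72, 7.89 and 7.65 at 14 h, 7.66, 7.97 and 8.21 at 21 h, and 8.91, 9.09 and 8.83 at 30 h. No range overlapped that of the time before it except at 21 h, which overlapped 14 h. Ube2l6 was 0.93 higher at 3 h than at 0 h (1.90-fold, limma adjusted p = 3.66e-05) and 3.72 higher at 30 h (13.1-fold, SE 0.12, limma adjusted p = 2.12e-13). At 3 h 90 tested genes had a larger rise than Ube2l6, and at 30 h 40 did. Its step from 14 h to 21 h was 0.19 and was not called (limma adjusted p = 0.247), but was called without the replicate 1 array of 21 h (0.34, adjusted p = 0.0327). The step from 21 h to 30 h was 1.0 (limma adjusted p = 7.01e-06).

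The probe set shared by Isg15 and Gm9706 read 4.02, 3.94 and 4.55 at 0 h and 4.56, 4.78 and 4.80 at 30 h. The 30 h range began just above the highest 0 h array. Because its signal may come from either gene, it is not counted with the others.

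Irf9, the DNA-binding subunit of ISGF3, rose steadily after the 3 h time. At 0 h and 3 h its log2 values were 7.35, 7.28 and 7.09, and 7.32, 7.20 and 7.04, with overlapping ranges. They were 7.42, 7.60 and 7.63 at 7 h and 7.77, 7.83 and 7.98 at 14 h. At 21 h they were 8.08, 8.13 and 8.12, and at 30 h they were 8.78, 8.68 and 8.75. From 7 h on, each time lay above every earlier time with no overlap. At 30 h Irf9 was 1.5 higher than at 0 h, or 2.82-fold (SE 0.086, limma adjusted p = 2.00e-10). The last step, from 21 h to 30 h, was 0.63 (limma adjusted p = 2.49e-05), compared with steps of 0.36 from 3 h to 7 h, 0.31 from 7 h to 14 h and 0.25 from 14 h to 21 h (limma adjusted p = 0.00857, 0.0172 and 0.0346). The smaller steps were less secure. Scaling on hybridisation controls ended the calls of 7 h against 3 h (0.22, adjusted p = 0.723), of 7 h against 0 h (0.26, adjusted p = 0.56) and of 21 h against 14 h (0.04, adjusted p = 0.937) and raised the step to 14 h to 0.59 (adjusted p = 0.0387). Without 1 array, calls of Irf9 were lost for 7 h against 0 h (replicate 3 of 0 h or of 7 h), 7 h against 3 h (replicate 3 of 3 h), 14 h against 7 h (replicate 1 of 7 h or 3 of 14 h) and 21 h against 14 h (any array of 21 h, or replicate 1 or 2 of 14 h), with adjusted p = 0.055 to 0.126.

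Stat2, the partner of IRF9 in ISGF3, followed another course. Its log2 values were 5.49, 5.56 and 5.55 at 0 h, 4.69, 5.10 and 4.72 at 3 h, and 5.43, 5.63 and 5.35 at 7 h. The 3 h arrays lay below all the others, and the 7 h arrays overlapped those of 0 h. The dip at 3 h was -0.70, or 1.62-fold lower (SE 0.14, limma adjusted p = 0.00156), and the return at 7 h was 0.63 (limma adjusted p = 0.00504). On a dimmer Stat2 probe set the 3 h difference was -0.13 (adjusted p = 0.446), so that the mean of both probe sets gave -0.41 (adjusted p = 0.0036). The dimmer probe set showed no return, with -0.002 for 7 h against 3 h (limma adjusted p = 0.993). With scaling on hybridisation controls the main probe set gave -0.60 for the dip (adjusted p = 0.0581) and 0.49 for the return (limma adjusted p = 0.283).

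Later Stat2 values were 5.91, 5.61 and 5.60 at 14 h, 5.62, 5.98 and 6.03 at 21 h, and 5.97, 5.65 and 6.06 at 30 h. These times overlapped each other, and all 9 arrays lay above the highest 0 h array. Stat2 was 0.36 higher at 30 h than at 0 h (1.28-fold, limma adjusted p = 0.0314) and 0.34 higher at 21 h (limma adjusted p = 0.0458). The other Stat2 probe set gave 0.51 at 30 h (adjusted p = 0.000715). The 30 h call on the main probe set was lost without any 1 of the 0 h arrays or without replicate 1 or 3 of 30 h (0.27 to 0.37, adjusted p = 0.054 to 0.128). The 21 h call was lost in 10 of the 18 fits that left out an array (highest adjusted p = 0.163) and with scaling on hybridisation controls (adjusted p = 0.171).

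Irf7, which drives large-scale interferon production in plasmacytoid dendritic cells and is itself an interferon target, was not called until 21 h. Its log2 values were 3.69, 3.67 and 4.07 at 0 h, 3.81, 3.10 and 4.19 at 3 h, 3.71, 3.98 and 4.11 at 7 h, and 4.08, 4.30 and 3.96 at 14 h. They were 4.74, 3.91 and 5.05 at 21 h and 5.76, 5.65 and 5.73 at 30 h. The ranges of 0 h to 14 h overlapped, replicate 2 of 21 h lay within the 0 h range, and the 30 h arrays were above all the others. Irf7 rose by 1.90 at 30 h, or 3.74-fold (SE 0.26, limma adjusted p = 8.41e-06), of which 1.15 came after 21 h (limma adjusted p = 0.00233). The 21 h rise of 0.75 (limma adjusted p = 0.0224) was lost without replicate 1 or 2 of 0 h or replicate 1 or 3 of 21 h (0.51 to 0.69, adjusted p = 0.067 to 0.125) and when the 0 h and 21 h arrays alone were fitted (adjusted p = 0.0519). Without replicate 2 of 21 h, the step from 14 h to 21 h was called at 0.78 (adjusted p = 0.0216), against 0.45 (adjusted p = 0.215) with all arrays.

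Irf1, a transcription factor best known as a rapid target of type II interferon, went down early and stayed down. Its log2 values were 5.78, 5.57 and 5.84 at 0 h and 4.76, 4.79 and 4.93 at 3 h. They were 5.22, 5.03 and 4.96 at 7 h, 4.77, 4.59 and 4.73 at 14 h, 4.74, 5.03 and 4.49 at 21 h, and 4.94, 5.06 and 5.04 at 30 h. All 15 later arrays lay below the lowest 0 h array. Irf1 fell by 0.90 at 3 h, a 1.87-fold decrease (SE 0.12, limma adjusted p = 3.02e-05), with 152 tested genes falling more. The difference from 0 h was -1.03 at 14 h (2.05-fold lower, limma adjusted p = 1.96e-06) and -0.72 at 30 h (1.64-fold lower, limma adjusted p = 3.93e-05). Between neighbouring times after 3 h the 14 h against 7 h step was called (-0.37, limma adjusted p = 0.0304), and scaling on hybridisation controls ended that call (-0.09, adjusted p = 0.728). It was also lost without replicate 1 or 2 of 7 h or replicate 2 or 3 of 14 h (adjusted p = 0.0585 to 0.127). The rise of 0.26 from 21 h to 30 h (adjusted p = 0.0884) was called without replicate 2 of 21 h (0.40, adjusted p = 0.00761).

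Ifih1, which encodes the cytoplasmic sensor of long double-stranded RNA known as MDA5, was lower at every time after 0 h. Its log2 values were 8.26, 8.01 and 8.25 at 0 h, 7.87, 7.89 and 7.76 at 3 h, and 7.73, 7.79 and 7.43 at 7 h. At 14 h they were 7.51, 7.65 and 7.60, at 21 h they were 7.78, 7.80 and 7.39, and at 30 h they were 7.20, 7.00 and 7.26. The 0 h arrays lay above all the others and the 30 h arrays below all the others, and each time from 3 h to 21 h overlapped the next. Ifih1 was 0.53 lower at 7 h than at 0 h (1.44-fold, limma adjusted p = 0.00272) and 1.02 lower at 30 h (2.03-fold, SE 0.12, limma adjusted p = 1.01e-06).

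From 21 h to 30 h Ifih1 fell by 0.50 (limma adjusted p = 0.00277). Scaling on hybridisation controls ended that call (-0.31, adjusted p = 0.257) and that of 14 h against 0 h, which went from -0.59 (adjusted p = 0.000658) to -0.36 (adjusted p = 0.164). The 3 h difference of -0.34 was at the threshold (limma adjusted p = 0.0472) and was lost in 11 of 18 fits without 1 array (highest adjusted p = 0.155).

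**Figure D2:**
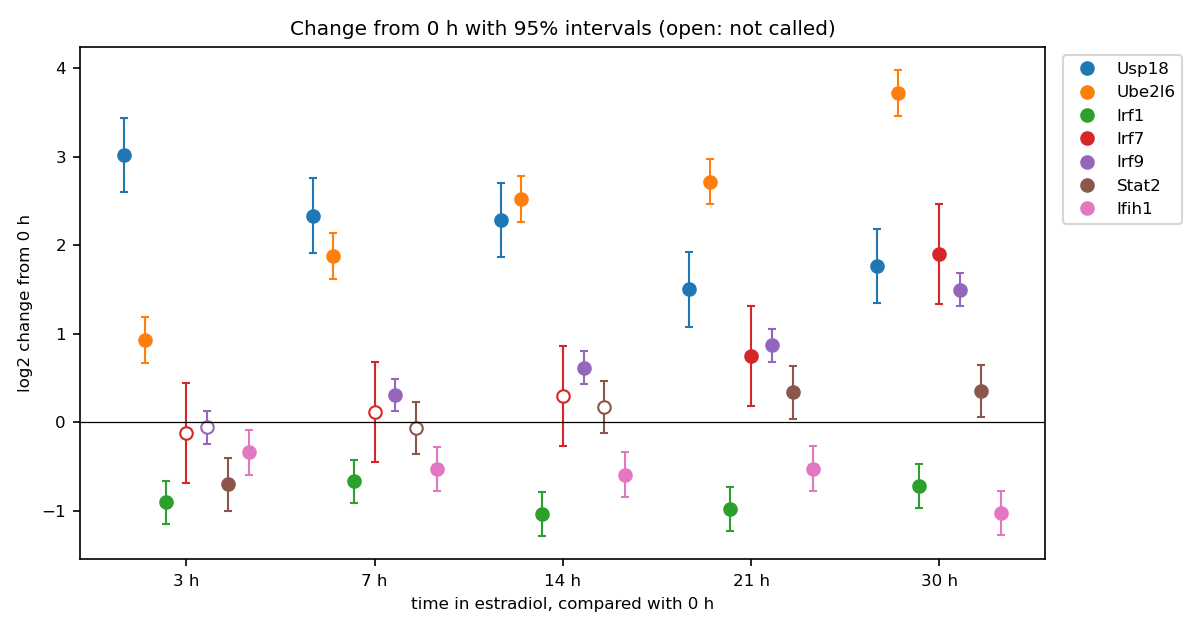
Log2 change from 0 h (vertical axis) of the 7 genes at 3, 7, 14, 21 and 30 h in estradiol (horizontal axis), from the fit of all 18 arrays, with 95% intervals as bars, filled points for called changes and open points for those not called. Usp18 stands highest at 3 h at 3.02 and Ube2l6 at 30 h at 3.72, while Irf1 and Ifih1 lie below 0 at each time.

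Counts of called genes were read against the share of all tested genes called in the same direction. At 3 h 2 of the 7 genes were higher and 3 were lower, while 11.2% of all genes were called higher and 14.7% lower. At 7 h 3 were higher and 2 lower, against 15.3% and 16.3%. The same split of 3 higher and 2 lower was found at 14 h, against 22.2% and 22.7%. At 21 h and at 30 h 5 were higher and 2 lower, against 31.4% and 28.6% of all genes at 21 h and 36.6% and 33% at 30 h. At 30 h most tested genes were thus called in some direction, and 7 of 7 is read against that.

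Scaling on hybridisation controls, which moved the median of all genes by 0.10, -0.05, 0.23, 0.01 and 0.20 at the 5 times in order, altered some of these splits. Under it 2 of the 7 were called higher at 3 h and 1 lower, and 2 and 2 at 7 h. The split was then 3 and 1 at 14 h, 4 and 2 at 21 h, and stayed 5 and 2 at 30 h. Of all tested genes that scaling gave 3.64% higher and 2.24% lower at 3 h, and 4.31% and 5.13% at 7 h. The shares were 21.9% and 6.38% at 14 h, 18.9% and 18.3% at 21 h, and 39.3% and 20.3% at 30 h. The median change of the 7 genes was -0.11, 0.12, 0.30, 0.75 and 1.5 at the 5 times in order. Over all genes with a probe set of their own, including those below the filter, the medians were -0.01, 0.01, 0.02, 0.07 and 0.08. All 7 genes were called by the F test over time, as were 74.3% of tested genes (limma adjusted p = 2.18e-12 for Ube2l6 to 3.58e-05 for Stat2).

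Between neighbouring times the genes moved in different windows. From 3 h to 7 h Stat2, Irf9 and Ube2l6 were higher and Usp18 lower, against 9.81% and 5.14% of all genes. From 7 h to 14 h Irf9 and Ube2l6 were higher and Irf1 lower, against 11.5% and 10.8%. From 14 h to 21 h Irf9 was higher and Usp18 lower, against 15.7% and 17.5%. From 21 h to 30 h Irf7, Irf9 and Ube2l6 were higher and Ifih1 lower, against 18% and 22.5%. With scaling on hybridisation controls these counts became 1 higher and 1 lower, 2 and 0, 0 and 1, and 3 and 0. The shares of all genes were then 0.999% and 1.36%, 10.3% and 1.24%, 0.959% and 13%, and 13.2% and 5.92%.

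Across the 18 arrays the courses were similar for some genes and opposed for others, as a description of arrays that share 6 times. Irf9 correlated with Ube2l6 at r = 0.91 and with Irf7 at r = 0.86. Its ISGF3 partner Stat2 followed it less closely, at r = 0.71. Ifih1 ran opposite to Ube2l6 at r = -0.90 and to Irf9 at r = -0.81. Usp18 correlated at r = 0.03 with Irf9, 0.30 with Ube2l6 and -0.75 with Irf1.

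Among the tested genes, leaving out the 8 themselves and unnamed transcripts, the 2 with the highest correlation were found for each. They were Cmas, which activates sialic acid, and Serinc5, a membrane protein known in human cells for restricting HIV particles, for Ube2l6 (both r = 0.99). Irf9 was most like Ube2b, a ubiquitin-conjugating enzyme (r = 0.99), and Fech, the enzyme that inserts iron into haem (r = 0.98). Irf7 was most like Hbb-y, an embryonic globin, and Prex1, an activator of Rac GTPases (both r = 0.93). For Ifih1 they were Pigb and Ercc8 (r = 0.96 and 0.94), for Irf1 Wnk4 and Phf23 (r = 0.93 and 0.91), for Stat2 Cfp and Cdk16 (both r = 0.90), and for Usp18 Ints6l and Itm2c (r = 0.90 and 0.89). None of these 14 genes belongs to the pathway lists that follow.

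Other genes of the pathway were counted from 11 lists with 155 genes in all, of which 128 have a probe set of their own and 93 passed the filter. At 30 h 34 of the 93 were higher (36.6%) and 29 lower (31.2%), close to the 36.6% and 33% of all tested genes. At 3 h 9 were higher and 22 lower (9.68% and 23.7%), against 11.2% and 14.7% of all genes. The median change of the 128 genes at 30 h was 0.07, and that of all genes with a probe set of their own 0.08. With scaling on hybridisation controls the 93 gave 4 higher and 5 lower at 3 h (3.64% and 2.24% of all genes) and 39 higher and 17 lower at 30 h (39.3% and 20.3%). That scaling ended 12 of the 63 calls at 30 h, all of genes called lower, among them Ifngr1, Ifngr2, Irf3, Irf5, Ifi47 and Cd274. At 3 h it ended 22 of 31, among them that of Uba7 (-0.23, adjusted p = 0.674).

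**Figure D3:**
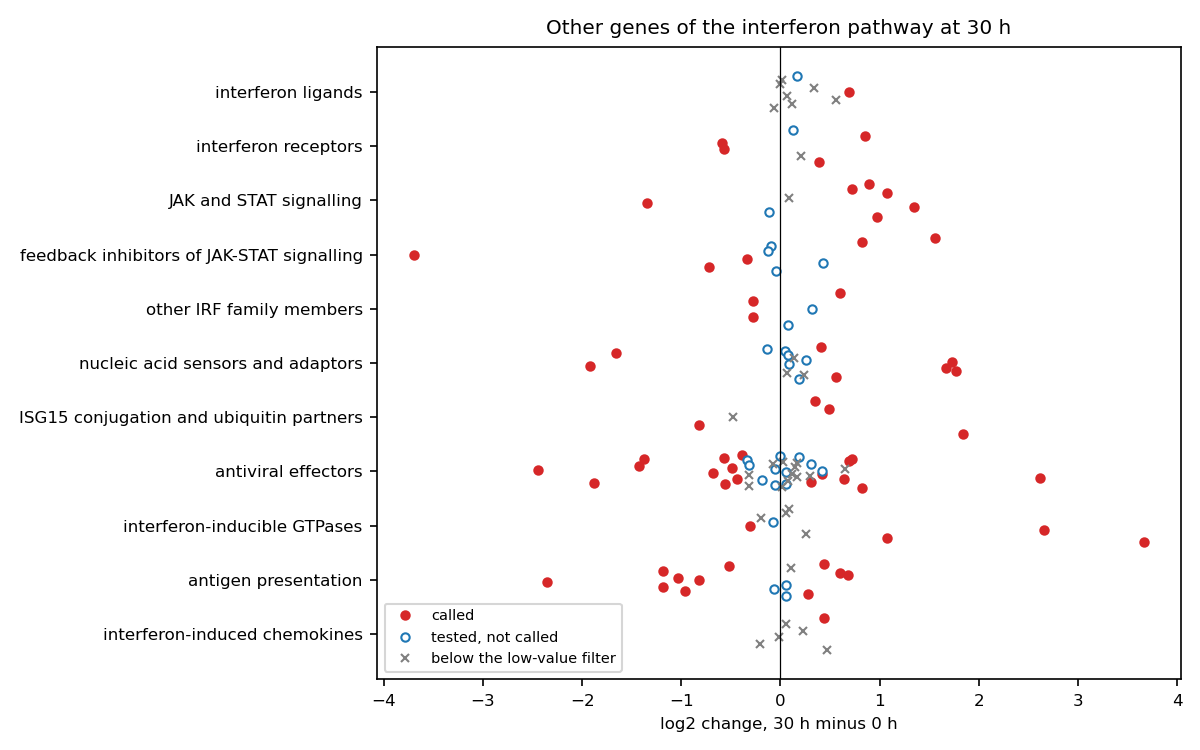
Log2 change from 0 h to 30 h (horizontal axis) of each other pathway gene with a probe set of its own, in 1 row per list (vertical axis), with filled circles for called genes, open circles for genes tested but not called, and crosses for genes below the low-value filter. Called genes lie on both sides of 0 in most lists, from Ptpn6 at -3.70 to Irgm2 at 3.67.

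In a list of other ISG15 conjugation genes and ubiquitin partners, 3 of 4 tested were higher at 30 h and 1 was lower. Of all tested genes 36.6% were higher and 33% lower. Herc6, the mouse ligase for ISG15, did not pass the filter. Uba7, which activates ISG15 ahead of UBE2L6, had log2 values of 9.13, 9.06 and 8.99 at 0 h, 8.85, 8.70 and 8.63 at 3 h, and 10.90, 10.86 and 10.93 at 30 h. It was thus lower at 3 h, below all 0 h arrays, and later above them. Uba7 changed by -0.33 at 3 h (limma adjusted p = 0.00473) and by 1.84 at 30 h (3.57-fold, limma adjusted p = 3.97e-12), and its 3 probe sets gave 1.68 to 2.33 at 30 h. At 3 h the other 2 were not called (-0.16 and -0.26, adjusted p = 0.292 and 0.198). Herc3, a ubiquitin ligase, rose by 0.49 and Arih1 by 0.35 at 30 h, though a dim Arih1 probe set was called in the other direction (-0.41). Trim25, a ligase that activates the RNA sensor RIG-I, fell by 0.82 (limma adjusted p = 5.45e-07). Its other probe sets gave -1.05 and 0.11, the latter not called.

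**Figure D4:**
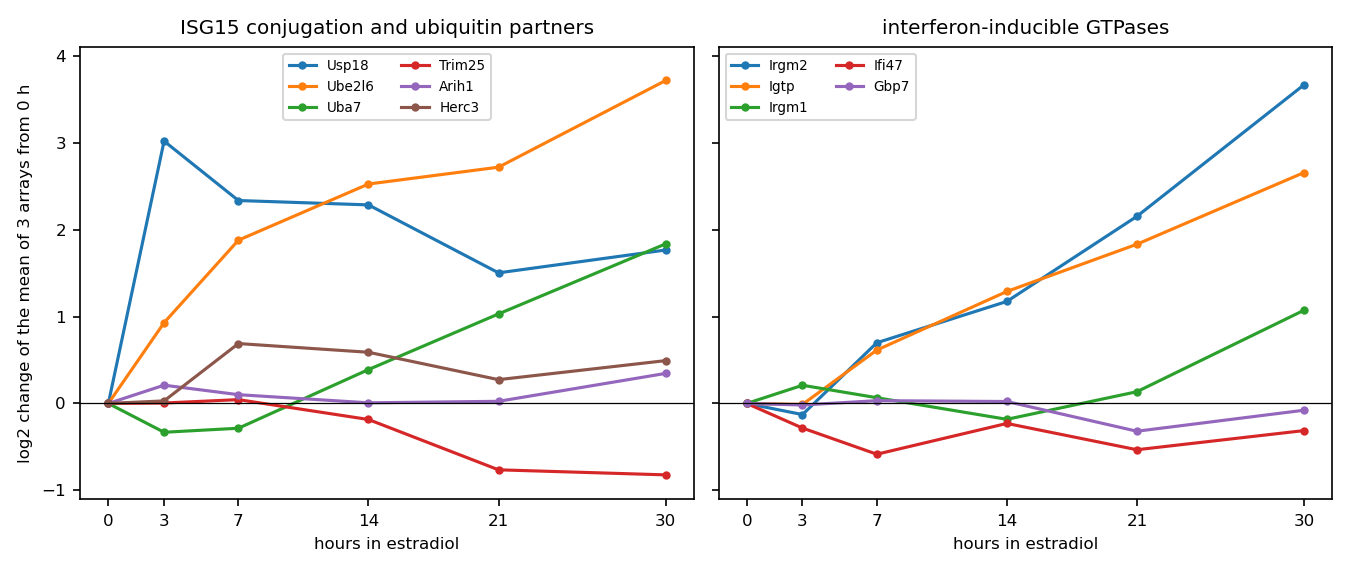
Log2 change of the mean of 3 arrays from 0 h (vertical axis) against hours in estradiol (horizontal axis), on the left for Usp18, Ube2l6 and 4 genes listed as ISG15 conjugation or ubiquitin partners, and on the right for the 5 tested interferon-inducible GTPases. Usp18 peaks at 3 h, Ube2l6 climbs from 3 h on, Uba7 is below its start until 7 h and above it from 14 h, and Irgm2 and Igtp climb from 7 h on.

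Among interferon-inducible GTPases 3 of 5 tested were higher at 30 h and 1 was lower. The shares of all tested genes were 36.6% and 33%. Irgm2 had log2 values of 4.99, 4.92 and 4.80 at 0 h and 8.66, 8.43 and 8.61 at 30 h, and Igtp had 8.14, 8.10 and 8.28, and 10.80, 10.80 and 10.88. For both genes the 2 times were far from overlapping. The rise was 3.67 for Irgm2 (12.7-fold, limma adjusted p = 6.20e-14), 2.66 for Igtp (6.31-fold, limma adjusted p = 6.26e-14) and 1.07 for Irgm1. Neither Irgm2 (-0.13) nor Igtp (-0.01) was called at 3 h (adjusted p = 0.424 and 0.934), the time of the Usp18 peak. Ifi47 was 0.31 lower at 30 h (-0.11, adjusted p = 0.634, with scaling on hybridisation controls), and Gbp2, Gbp3, Gbp6 and Iigp1 did not pass the filter.

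Antiviral effectors, the classical products of interferon-stimulated genes, were split. Of 40 with a probe set 28 passed the filter, with a median change of 0.02 over the 40 at 30 h. Then 7 of the 28 were higher and 10 lower, against 36.6% and 33% of all tested genes. With scaling on hybridisation controls 9 were higher and 5 lower, against 39.3% and 20.3% of all tested genes. The 12 that did not pass, among them Ifit1, Ifit2, Oasl1, Oasl2 and Mx2, had means between 1.45 and 3.05 at every time. Parp14, an ADP-ribosyltransferase, rose by 2.62 (6.14-fold, limma adjusted p = 1.17e-11), and by 1.40 on its other probe set. Nmi fell by 2.45, Samhd1, which depletes nucleotides that viruses need, by 1.88, and Ifitm2, which hinders viral entry, by 1.43 (limma adjusted p = 5.50e-11, 2.10e-11 and 2.38e-10). The other Samhd1 probe sets gave -1.09, -1.23 and, on a dim one, 0.02.

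Interferons themselves were barely measured, with 2 of 9 ligand genes tested and Ifnb1 and Ifng below the filter at every time (the 7 that did not pass had means of 1.60 to 3.25). Ifna5 was 0.69 higher at 30 h (limma adjusted p = 3.86e-05) on a probe set of a kind that can bind related genes. Of 6 interferon-induced chemokines only Ccl2 was tested, and it was 0.44 higher. The other 5, Cxcl9, Cxcl10, Cxcl11, Ccl5 and Ccl7, did not pass the filter.

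For the receptors, 3 of 5 tested were lower at 3 h and 0 higher, against 14.7% and 11.2% of all genes. Scaling on hybridisation controls left 2 of these 3 calls, against 2.24% of all genes called lower. At 30 h 2 of the 5 receptor genes were higher and 2 lower, against 36.6% and 33% of all genes, or 2 and 0 with that scaling (39.3% and 20.3%). Ifngr2, a chain of the type II receptor, had dropped by 1.19 at 3 h and then by 1.67 relative to 0 h at 14 h, and its 2 probe sets were called in opposite directions at 30 h (-0.57 and 0.33). Ifnar2, a chain of the type I receptor, rose by 0.85 at 30 h. Of 7 tested JAK and STAT genes 5 were higher and 1 lower at 30 h, with Tyk2, the receptor's kinase, up by 0.97 and Stat3 by 1.07, while Stat5a fell by 1.35 and Stat5b rose by 1.35. Of 9 feedback inhibitors 0 were higher and 5 lower at 3 h, when 14.7% of all genes were lower. Scaling on hybridisation controls left 1 of the 5 calls, against 2.24% of all genes called lower. At 30 h 2 of the 9 were higher and 3 lower. Socs3 fell by 2.0 at 3 h (limma adjusted p = 2.05e-06), while its other probe sets gave -1.02 and 0.16. Its mean of 3.15 at 3 h lay below the 40th percentiles of the arrays, so the size of this fall is uncertain. At 21 h and 30 h Socs3 was not called against 0 h (-0.10 and -0.04, limma adjusted p = 0.68 and 0.864). Ptpn6, the phosphatase SHP-1, fell by 3.70 at 30 h, a 13-fold decrease (limma adjusted p = 5.64e-14), and Cish rose by 1.56. The other Ptpn6 probe set gave -2.99.

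Of 13 tested sensors and adaptors beside Ifih1, 5 were higher and 2 lower at 30 h. For this and the next 2 lists the shares of all tested genes were 36.6% and 33%. Mavs, the adaptor on which MDA5 signals, rose by 1.73 (limma adjusted p = 6.46e-08), or 1.205 on its other probe set, while Ifih1 fell. Tbk1 and Ticam1 rose by 1.67 and 1.77, and Sting1 and Dhx58 fell by 1.92 and 1.66 to levels below the 40th percentiles of the arrays. Of 5 other IRF genes Irf2 was 0.60 higher at 30 h and Irf3 and Irf5 were lower by 0.27 and 0.28 on their main probe sets, with 0.31 to 0.63 on the other Irf3 probe sets. With scaling on hybridisation controls 2 of these 5 were higher and 0 lower, against 39.3% and 20.3% of all tested genes. In antigen presentation 4 of 14 tested genes were higher and 7 lower. The 4 called higher were H2-K1 (0.68), H2-D1 (0.60), B2m (0.44) and Tap2 (0.27). Among the 7 the falls were 2.36 for the immunoproteasome subunit Psmb10 (limma adjusted p = 4.43e-14), 1.19 for Psmb9 and 0.96 for Tap1. Another Tap1 probe set was called higher (0.40).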

How the data were processed

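The authors deposited log2 expression values for 45101 probe sets on 18 Affymetrix arrays, and their maximum of 14.4 shows the base. Per the labels' protocols, Trizol was used for the RNA and biotin for the label. The sources used here do not give the probe summary or array scaling. Nearly equal array medians mean that changes are relative to the middle of all genes. The number of arrays limits the precision.

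The platform annotation gave 34945 probe sets 1 gene, 932 several and 9211 none, and 34741 of the first had an Entrez ID in the RefSeq table, with 0 symbols changed. A gene was tested if 3 or more arrays put it above their 40th percentile. A mean for each time was fitted to all arrays by limma 3.58.1 (R 4.3.3), leaving 12 residual degrees of freedom. Tests were two-sided, Benjamini-Hochberg adjusted over 12719 genes, and called at an adjusted p under 0.05. The code was tested on simulated data.

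The genes and lists were chosen with earlier results of these data known. From each pathway list, names were drawn from the called genes with the largest change at 30 h (up to 4). Up to 2 others with a change of at least 1 earlier were added. Erap1 (-1.18 at 30 h), Ifi30 (-1.04), Pias1 (0.82), Socs2 (-0.72) and Il10rb (0.39) met this rule but were not described above. Other names in the pathway paragraphs (genes below the filter, antigen presentation genes called higher, and Ifngr2 at 14 h) were chosen after their values were seen. Alternatives covered normalization, filter, probe set choice, arrays fitted, variance, a 2-fold minimum, the replicate number as a block and leaving out each array.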

Additional observations from a re-analysis of the deposited data

How the results depend on the processing

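No called change of the 7 genes reversed under the alternatives run, and each gene was called by the F test under all of them. Counts of members called that changed by over 1.5 times were as follows. With a 2-fold minimum they were 1 at 3 h, 2 at 7 h, 3 at 14 h, then 2 for 21 h, each against 0 h, and 0 from 3 h to 7 h, 0 from 7 h to 14 h, 0 from 14 h to 21 h and 1 from 21 h to 30 h. The share of all tested genes that passed the 2-fold minimum was not counted, so nothing is read from these counts. Scaling on 18 hybridisation control probe sets gave 3 at 3 h against 0 h, 2 from 3 h to 7 h and 1 from 14 h to 21 h, and no filter and fitting the compared arrays alone each gave 1 from 14 h to 21 h. Leaving out 1 array gave 2 to 4 from 3 h to 7 h, 1 to 3 from 7 h to 14 h and 1 to 2 from 14 h to 21 h, and the causes of these changes beyond fewer arrays were not tested. Of single-gene results 71 lost a call, 5 gained one and 1688 kept their side of the threshold. Stat2 at 30 h was 0.56 both with quantile normalization and with scaling on hybridisation controls, and 7 h against 3 h was 0.32 with the mean of its probe sets.

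The replicate numbers did not pair the arrays: over 45 same-numbered pairs the mean correlation of deviations was 0.012 (-0.17 to 0.19), with 7 pairs over 0.1, and 4 of 18 arrays correlated best with their own number. With the replicate number as a block, 1 member was called from 14 h to 21 h, and Ifih1 at 3 h and Stat2 at 21 h were not called (adjusted p = 0.0539 and 0.0598). Dim probe sets such as Usp18 at 0 h limit folds.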
